A study of Homo sapiens with 18 samples.

Results

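The genes described here are the interferon ligands and interferon receptor subunits that were read out in IMR90 cells, which are human lung fibroblasts. They were chosen by their gene symbols, and 10 of the 57500 genes in the count table belong to the set. The ligands are IFNB1, IFNE, IFNL1, IFNL2 and IFNL3, and the receptor subunits are IFNAR1, IFNAR2, IFNGR1, IFNGR2 and IFNLR1. RNA-seq libraries were made from 6 groups with 3 replicates each: proliferating cells (Prol), cells made senescent by irradiation (Sen (IR)), irradiated cells cleared of mitochondria with CCCP (Sen (IR) + CCCP), and such cells given acetate, mtDNA, or acetate and mtDNA together. CCCP is an uncoupler that dissipates the mitochondrial membrane potential, and in fibroblasts that overexpress Parkin it leads to removal of mitochondria by mitophagy. In the study's methods the cells of this model overexpressed Parkin, CCCP was given after irradiation, acetate followed once mitochondria had been cleared, and mtDNA was delivered late in the course with a lipid transfection reagent. The labels name no group given the reagent alone, so mtDNA and its transfection cannot be told apart. The study describes its in vitro experiments as repeated independently, but the labels do not tie a library to a separate culture, so p-values measure the spread between these libraries, which may be technical.

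Type I interferons, to which IFNB1 and IFNE belong, signal through a receptor made of IFNAR1 and IFNAR2. Type II interferon (IFNG) uses IFNGR1 and IFNGR2, and type III interferons (the IFNL genes) use IFNLR1 together with IL10RB. Receptor engagement activates the JAK kinases, which phosphorylate transcription factors such as STAT2 that switch on interferon-stimulated genes. IFNB1 is the interferon that fibroblasts are best known to make, for example when cGAS and STING sense DNA in the cytosol, and it is normally silent.

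In the files' build, GRCh38, with GENCODE v44 annotation, IFNB1 is a single-exon gene at chr9:21077104-21077942 on the minus strand, and IFNE is a single-exon gene in the same cluster at chr9:21480839-21482313, also on the minus strand. The type III genes lie on chromosome 19, IFNL3 at chr19:39243455-39245250 on the minus strand, IFNL2 at chr19:39268396-39270188 and IFNL1 at chr19:39296407-39298673, both on the plus strand. Of the receptor genes, 3 are neighbours on the plus strand of chromosome 21: IFNAR2 at chr21:33205282-33265675, IFNAR1 at chr21:33324387-33359864 and IFNGR2 at chr21:33403413-33479348. IFNGR1 lies at chr6:137197483-137219449 and IFNLR1 at chr1:24154168-24187959, both on the minus strand.

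The bases just before the start of 3 ligand genes are shown. Of these, IFNL1 had too few counts for a difference between groups to be read. Each sequence is the 250 bases before the RefSeq start (GRCh38.p14), 5′ to 3′ on the strand of the gene. The regions are chr9:21077943-21078192 on the minus strand for IFNB1, chr19:39296157-39296406 on the plus strand for IFNL1 and chr9:21482314-21482563 on the minus strand for IFNE. Capitals mark every match, on either strand, to 4 motifs: AANNGAAA (the core bound by interferon regulatory factors), the longer ISRE form found in interferon-stimulated response elements (GAAA, then NN, then GAAA, every match of which overlaps a match to the first), the NF-κB site (GGGA, then NN, then TTCC) and TTCNNNGAA (the gamma-activated site), where N is any base.
IFNB1: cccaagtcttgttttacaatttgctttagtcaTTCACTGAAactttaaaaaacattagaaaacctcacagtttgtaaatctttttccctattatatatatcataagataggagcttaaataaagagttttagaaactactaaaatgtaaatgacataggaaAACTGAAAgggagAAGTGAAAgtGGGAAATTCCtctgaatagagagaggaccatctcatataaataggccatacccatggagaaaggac
IFNL1: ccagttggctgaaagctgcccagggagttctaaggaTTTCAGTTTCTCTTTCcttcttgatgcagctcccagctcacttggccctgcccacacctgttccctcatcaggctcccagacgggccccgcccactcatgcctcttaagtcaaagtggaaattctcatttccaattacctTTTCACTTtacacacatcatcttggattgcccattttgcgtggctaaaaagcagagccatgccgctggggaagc
IFNE: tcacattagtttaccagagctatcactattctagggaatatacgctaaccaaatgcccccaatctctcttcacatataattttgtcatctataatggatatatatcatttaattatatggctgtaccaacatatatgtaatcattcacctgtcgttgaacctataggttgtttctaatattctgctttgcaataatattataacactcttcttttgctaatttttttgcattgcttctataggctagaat
Of the 10 genes, 9 had such an entry in RefSeq. The IFNB1 window held 2 matches to AANNGAAA, 89 to 82 and 76 to 69 bases before the start, and 1 match to the NF-κB site, 66 to 57 bases before it, so these 3 matches lay side by side. It also held 1 match to TTCNNNGAA, 218 to 210 bases before the start. The IFNL1 window held 3 matches to AANNGAAA, of which 2 overlapped the 2 matches to the ISRE form, and the IFNE window held no match to any of the 4. Among 35091 windows of the same length in the RefSeq table, 20.3% held AANNGAAA, 3.02% held the ISRE form, 1.4% held the NF-κB site and 6.57% held TTCNNNGAA. The IFNL2 window and the first IFNL3 window each held 2 matches to AANNGAAA and 1 to the ISRE form. The IFNGR2 window held 1 match to the NF-κB site and the IFNLR1 window 1 to TTCNNNGAA. Those of IFNAR1 and IFNGR1 held none. The windows of IFNL2 and IFNL3 were equal at 249 of 250 bases. The 2 genes are near-identical copies, and since the authors kept uniquely mapped reads, reads from either may be missing from the counts.

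Total counts per library ranged from 24624886 to 46224280. The fibroblast markers COL1A1, COL1A2, COL3A1, PDGFRB, THY1 and VIM all passed the filter on low counts, with a summed level of 3507 to 17111 TPM per library (TPM being the deposited unit that corrects for gene length). Markers of plasmacytoid dendritic cells, the specialised producers of type I interferon, were at or near 0: LILRA4 had 0 counts and CLEC4C 1 count over 18 libraries, although IL3RA reached 14.5 TPM. Of 3 leukocyte markers PTPRC had at most 0.118 TPM in any library, CD3E had 3 counts in all, and CD14 passed the filter with 265 counts and reached 2.36 TPM, in acetate replicate 1. The summed level of the 3 ran from 0.281 to 2.44 TPM, and its part in the results was not tested. The 13 protein-coding genes of the mitochondrial genome took 2.62% ± 0.29 (SD, n = 3) of counts in Prol, 2.11% ± 0.47 in Sen (IR), 0.122% ± 0.012 in Sen (IR) + CCCP and 0.132% ± 0.0076 with acetate. The share was 0.0505% ± 0.0039 with mtDNA. In Sen (IR), replicate 3 had 2.64% against 1.94% and 1.75% in replicates 1 and 2. In the combination 1 library stood apart, replicate 2, with 0.237% against 0.0640% and 0.0624% in replicates 1 and 3, and results that rest on it are given with and without it.

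IFNB1 was counted only in libraries of cells given mtDNA. It had 0 counts in each of the 12 libraries of the 4 groups that received no mtDNA, proliferating and senescent cells alike. With mtDNA it had 25, 32 and 28 counts in replicates 1, 2 and 3, and with acetate and mtDNA together it had 4, 30 and 6 counts. The 6 libraries with mtDNA thus all lay above the 12 without, and within the combination replicate 2 lay with the mtDNA libraries while replicates 1 and 3 lay near the floor of detection, set at 3 counts.

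**Figure D1:**
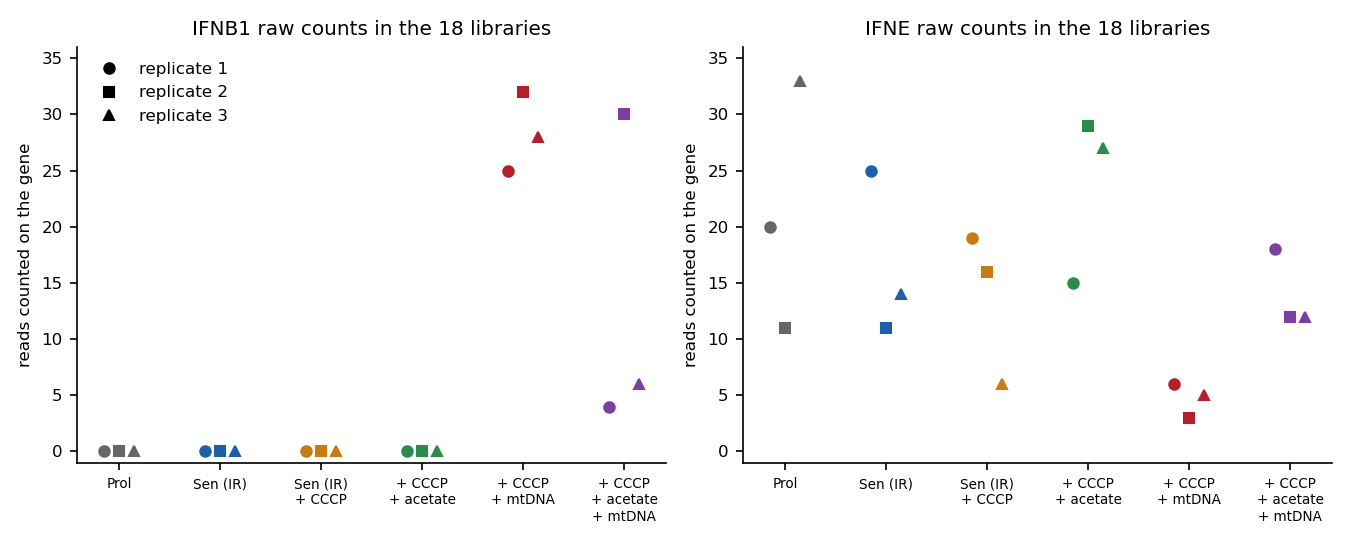
Raw counts of IFNB1 (left) and IFNE (right) on the y axis in each of the 18 libraries, by group on the x axis, with circles, squares and triangles for replicates 1, 2 and 3. IFNB1 lies at 0 in the 4 groups without mtDNA and at 25 to 32 with mtDNA, and IFNE lies at 3 to 6 with mtDNA and at 6 to 33 elsewhere.

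In CPM (counts scaled to library sizes that were corrected by TMM factors), IFNB1 stood at 0.986 ± 0.142 (SD, n = 3) with mtDNA and at 0.516 ± 0.620 with acetate and mtDNA. A count of 0 over the 3 libraries of Sen (IR) + CCCP allows up to 0.0291 CPM by counting error alone. The IFNB1 level pooled over the libraries with mtDNA was 33.8 times that floor. In the combination the pooled level was 18.1 times the floor of the acetate group, 0.0246 CPM. It was 6.23 times that floor when replicate 2 of the combination was left out. These ratios carry no error of the observed counts, so they are not lower bounds. No p from the fit over all genes is given for these differences, since IFNB1 passed the filter on low counts only through the groups with mtDNA. The exact permutation test of IFNB1 alone gave p = 0.1 for each (two-sided), the smallest value that 3 libraries against 3 can give. In bulk RNA, more cells that make a transcript and more of it per cell cannot be told apart.

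The IFNB1 level of the combination overlapped that of mtDNA alone. It was lower than mtDNA alone by a log2 fold change of -1.05 ± 0.61 (SE, with a 95% interval of -2.25 to 0.16). The exact permutation test of IFNB1 alone, with all libraries, gave p = 0.4 (two-sided). Without replicate 2 of the combination the difference was -2.63, on 4 and 6 counts in replicates 1 and 3. On log2(TPM + 0.1) it was -1.65 with all libraries. No p from the fits over all genes is given for this difference either. The libraries with mtDNA alone were enough for IFNB1 to pass the filter on low counts, and they are the higher group here. The size of the difference turned on replicate 2 of the combination. That library also had the highest mitochondrial share of its group, and the part of that share in the result was not tested.

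IFNE, a type I interferon best known from epithelia of the reproductive tract, was counted in all 18 libraries, at low levels. It had 20, 11 and 33 counts in Prol, 25, 11 and 14 in Sen (IR), and 19, 16 and 6 in Sen (IR) + CCCP. It had 15, 29 and 27 counts with acetate, 6, 3 and 5 with mtDNA, and 18, 12 and 12 with both. On the CPM scale its libraries with mtDNA alone were the 3 lowest, at 0.108 to 0.217 CPM, but Sen (IR) + CCCP replicate 3, at 0.218 CPM, was as low and had the same 6 counts as mtDNA replicate 1.

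The IFNE level in the combination was higher than with mtDNA alone (log2 fold change 1.51 ± 0.44, adjusted p = 0.00543), at 0.467 ± 0.041 against 0.162 ± 0.055 CPM. Compared with Sen (IR) + CCCP, mtDNA alone gave -1.26 ± 0.44, which missed the threshold (adjusted p = 0.0511). Leaving out Sen (IR) + CCCP replicate 3 made this difference -1.49 with an adjusted p of 0.0267, and it was also called on total counts alone (adjusted p = 0.0381) and on log2(TPM + 0.1) (limma, adjusted p = 0.0165). The difference between the effects of mtDNA with and without acetate was 0.96 ± 0.56 for IFNE and was not called (adjusted p = 0.545). IFNE lies inside an intron of MIR31HG, a long non-coding RNA on the same strand, so unspliced reads of MIR31HG could be counted on it. MIR31HG gave a log2 fold change of 0.28 in the combination over mtDNA (adjusted p = 0.370) and of -0.02 with mtDNA (adjusted p = 0.970). In edgeR it was called as lower after CCCP (-0.78, adjusted p = 0.00562) and as higher with acetate (0.71, adjusted p = 0.0105). IFNE gave -0.36 and 0.55 there and was not called. MIR31HG had the direction of IFNE in every comparison between groups, and the opposite one in the interaction (-0.44). Its part in the IFNE counts was not tested.

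The type III ligands were at or under the floor of 3 counts in every library. IFNL1 had 4 counts in all, 2 in mtDNA replicate 3 and 2 in replicate 2 of the combination, so both lay in libraries with mtDNA. IFNL2 had 1 count, in mtDNA replicate 2, and IFNL3 had 0 counts in all 18 libraries. No fold change is given for these genes, since every group was at or under the floor. A further 17 interferon genes were listed in the table and none passed the filter on low counts. IFNG, the only type II interferon, had 0 counts in all libraries, as did IFNL4. Of the IFNA genes, IFNA1 had the most counts, 22 over 12 libraries, and its reads are hard to separate from those of its near-identical copy IFNA13, which had 0.

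The genes whose levels most resembled IFNB1 over the 18 libraries were PNPT1, TRIM69, DDX60L, ARHGAP27 and BATF2. Pearson's r of log2(CPM + 1) ran from 0.966 for PNPT1 to 0.945 for BATF2. These values describe 18 libraries in 6 groups in which 12 libraries have an IFNB1 level of 0, so they mostly separate libraries with mtDNA from those without. Of the 5 genes, 3 remained with a pseudocount of 0.1, 2 without replicate 2 of the combination and 0 by Spearman's rank correlation.

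The 4 receptor subunits for type I and type II interferon were counted in every library, with at least 228 counts. IFNLR1, the subunit particular to type III interferons, had 16 counts over 7 libraries and at most 4 in any library. Fibroblast libraries thus held RNA for the receptors of type I and type II interferon throughout, whereas IFNLR1 was at the edge of detection in all 6 groups. IL10RB, the shared subunit of the type III receptor, was counted in every library.

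Levels of different genes were compared per length, in deposited TPM. In Prol the order was IFNAR1 at 117 ± 3.6 (SD, n = 3), IFNGR2 at 109 ± 4.8, IFNGR1 at 71.2 ± 3.3 and IFNAR2 at 19.9 ± 0.82 TPM. In Sen (IR) IFNAR1 stood first at 145 ± 3.6, IFNGR1 at 128 ± 17 and IFNGR2 at 126 ± 1.2 did not differ beyond their spread, and IFNAR2 was last at 13.2 ± 0.56 TPM. In the 4 groups given CCCP the order was IFNGR1, IFNAR1, IFNGR2 and IFNAR2, with no overlap between neighbours in any of these groups. In Sen (IR) + CCCP these levels were 177 ± 4.9, 133 ± 4.2, 63.9 ± 1.3 and 10.4 ± 0.74 TPM. IFNAR2, the subunit that binds type I interferon with high affinity, was thus the lowest of the 4 in every library. Without the correction for length IFNAR1 came first in all 6 groups.

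**Figure D2:**
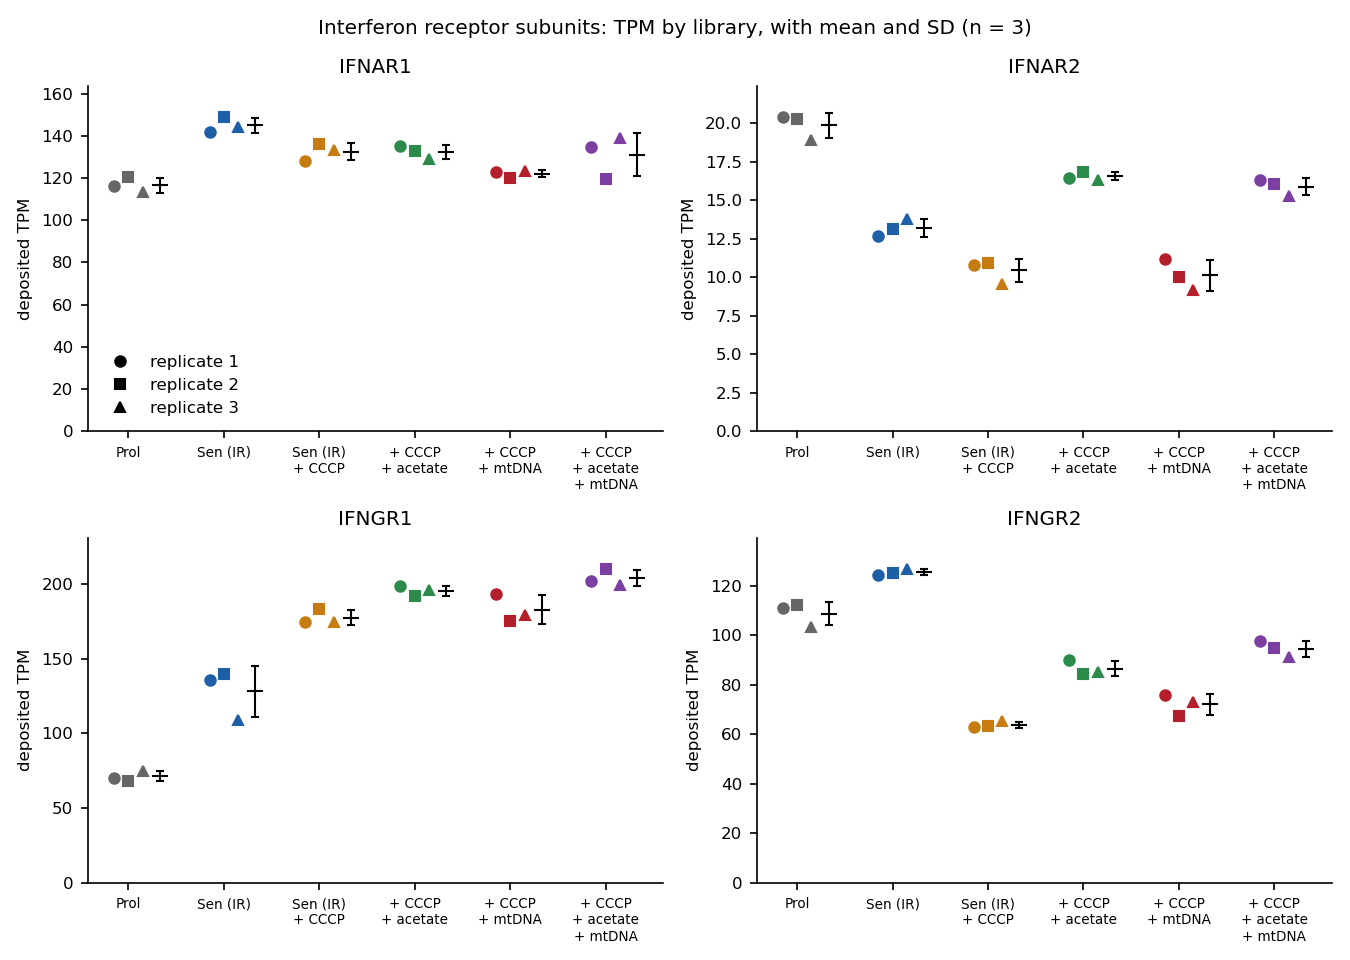
TPM of the 4 receptor subunits on the y axis (each panel from 0) by group on the x axis, with circles, squares and triangles for replicates 1, 2 and 3 and a bar for the mean with its SD (n = 3). IFNAR2 and IFNGR2 stand at 10.4 and 63.9 TPM in Sen (IR) + CCCP and at 16.6 and 86.6 TPM with acetate.

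IFNAR2 fell in Sen (IR) and again after CCCP, and it was higher with acetate than in the matching group without. Its levels were 20.4, 20.3 and 18.9 TPM in Prol, 12.7, 13.1 and 13.8 TPM in Sen (IR), and 10.8, 10.9 and 9.59 TPM in Sen (IR) + CCCP. They were 16.5, 16.8 and 16.3 TPM with acetate, 11.2, 10.03 and 9.15 TPM with mtDNA, and 16.3, 16.0 and 15.3 TPM with both. The libraries with acetate lay above those of Sen (IR), Sen (IR) + CCCP and mtDNA, and below those of Prol in TPM. On the CPM scale used for the tests they overlapped those of Sen (IR), at 15.3 ± 0.17 with acetate and 15.01 ± 0.63 with both against 15.3 ± 0.48 CPM (SD, n = 3).

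IFNGR2, the subunit of the type II receptor that brings in JAK2, had the largest fall of the 4 after CCCP. Its levels were 111, 112 and 103 TPM in Prol, 125, 125 and 127 TPM in Sen (IR), and 63.1, 63.4 and 65.4 TPM in Sen (IR) + CCCP. They were 90.1, 84.2 and 85.4 TPM with acetate, 75.8, 67.5 and 73.3 TPM with mtDNA, and 97.6, 94.8 and 91.2 TPM with both. The 6 groups did not overlap one another on this scale.

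IFNGR1, the subunit that binds IFNG, stood at 70.4, 68.4 and 74.9 TPM in Prol and at 136, 140 and 109 TPM in Sen (IR), where replicate 3 was the lowest. It stood at 175, 183 and 174 TPM in Sen (IR) + CCCP, at 199, 192 and 196 TPM with acetate, at 194, 175 and 179 TPM with mtDNA, and at 202, 210.1 and 199.5 TPM with both. In TPM the libraries of Prol and Sen (IR) all lay below those given CCCP, and the mtDNA libraries overlapped those of Sen (IR) + CCCP and of acetate. On the CPM scale used for the tests, Sen (IR) at 82.8 ± 11.9 overlapped Sen (IR) + CCCP at 85.2 ± 2.5 CPM (SD, n = 3).

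IFNAR1, the signalling subunit of the type I receptor that pairs with TYK2, varied least. It stood at 116, 120.4 and 113 TPM in Prol, at 142, 149 and 144 TPM in Sen (IR), at 128, 136 and 133 TPM in Sen (IR) + CCCP and at 135, 133 and 129 TPM with acetate. With mtDNA it stood at 123, 120.1 and 123 TPM and with both at 135, 119.6 and 139 TPM. Replicate 2 of the combination was the lowest of its group for this gene.

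In Sen (IR) compared with Prol, which asks what irradiation-induced senescence changes, 3 of the 6 members tested rose and 1 fell, where 26.7% of the 16994 genes tested rose and 29.9% fell. IFNGR1 rose most (log2 fold change 0.77 ± 0.08, adjusted p = 1.80e-08), followed by IFNAR1 (0.23 ± 0.05, adjusted p = 0.000206). IFNAR2 fell by 0.67 on the log2 scale (SE 0.07, adjusted p = 4.68e-08). IFNGR2 rose by 0.13 ± 0.05 with an adjusted p of 0.0314, which did not hold without Prol replicate 1, 2 or 3 (adjusted p = 0.0747, 0.0644 and 0.165) or without Sen (IR) replicate 1 or 2 (0.0744 and 0.132). The 2 chains of the type I receptor thus moved in opposite directions. IFNB1 had 0 counts in both groups.

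Sen (IR) + CCCP compared with Sen (IR) asks what CCCP and the loss of mitochondria change together. The labels name no group given CCCP with mitochondria kept, so the drug and the loss cannot be told apart. In this comparison 3 members fell and 0 rose, where 31.3% of genes tested fell and 34% rose. IFNGR2 fell by 1.40 on the log2 scale (SE 0.05, adjusted p = 9.81e-16), IFNAR2 by 0.76 (SE 0.08, adjusted p = 1.14e-08) and IFNAR1 by 0.56 (SE 0.05, adjusted p = 6.96e-10). IFNGR1 gave 0.04 ± 0.07 and was not called (adjusted p = 0.650), and it gave -0.07 without Sen (IR) replicate 3. The scale bears on this comparison. The median over all genes tested was 0.03 with TMM and 0.44 on log2(TPM + 0.1), where IFNGR1 gave 0.48 (limma, adjusted p = 1.30e-05), IFNAR1 -0.13, IFNAR2 -0.34 and IFNGR2 -0.97. Relative to all genes, IFNGR1 thus stayed near the median and the other 3 lay below it on both scales.

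In cells given acetate compared with Sen (IR) + CCCP, which asks whether a source of acetyl-CoA acts without mitochondria, 3 members rose and 0 fell, where 28.8% of genes tested rose and 28.3% fell. IFNAR2 rose by 0.76 ± 0.07 on the log2 scale (adjusted p = 1.57e-08), IFNGR2 by 0.54 ± 0.05 (adjusted p = 9.47e-09) and IFNGR1 by 0.24 ± 0.07 (adjusted p = 0.00859). IFNAR1 gave 0.10 ± 0.05 and was not called (adjusted p = 0.0841), and its adjusted p was 0.0330 without Sen (IR) + CCCP replicate 2 and 0.0351 without acetate replicate 3. On the log2(TPM + 0.1) scale, where the median of all genes was -0.09, IFNAR1 gave -0.00 and the IFNGR1 difference was 0.14 and was not called (limma, adjusted p = 0.106), while IFNAR2 and IFNGR2 were called on both scales. IFNE gave 0.55 ± 0.34 (adjusted p = 0.169).

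The acetate effect was also read out in cells that had received mtDNA, from other libraries. Both comparisons came from the same fit to all 18 libraries, so their SE and p share an estimate of the spread. In the combination compared with mtDNA alone, 5 of the 6 members tested rose and 0 fell, where 27.4% of genes tested rose and 29.9% fell. IFNAR2 rose by 0.71 ± 0.08 (adjusted p = 7.20e-08), IFNGR2 by 0.45 ± 0.05 (adjusted p = 1.52e-07), IFNGR1 by 0.22 ± 0.07 (adjusted p = 0.0151) and IFNAR1 by 0.16 ± 0.05 (adjusted p = 0.00568). The fifth was IFNE. The rises of IFNAR1 and IFNGR1 were not called on log2(TPM + 0.1) (limma, adjusted p = 0.0810 and 0.0643), and those of IFNAR2 and IFNGR2 were. Without replicate 2 of the combination the edgeR calls of the receptors and IFNE held. No call of IFNB1 is given for this fit, since it then passed the filter only through mtDNA alone, where it was higher.

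In cells given mtDNA compared with Sen (IR) + CCCP, 10.7% of genes tested rose and 7.4% fell. Among the members tested other than IFNB1, whose call follows from how it passed the filter, IFNGR2 was the 1 that rose, by 0.25 ± 0.05 (adjusted p = 0.00167). The type I receptor gave -0.04 for IFNAR1 (95% interval -0.14 to 0.05) and 0.02 for IFNAR2 (-0.14 to 0.18), and neither was called (adjusted p = 0.583 and 0.909). IFNGR1 gave 0.11 ± 0.07 (adjusted p = 0.327). In the combination compared with acetate alone, 6.57% of genes tested rose and 6% fell. Other than IFNB1, the 1 member that rose was again IFNGR2, by 0.16 ± 0.05 (adjusted p = 0.0361). This IFNGR2 call did not hold without acetate replicate 2 or 3 (adjusted p = 0.152 and 0.118) or without replicate 1 or 2 of the combination (0.112 and 0.0970). IFNAR1, IFNAR2 and IFNGR1 gave 0.02, -0.02 and 0.10 in the same comparison and were not called.

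**Figure D3:**
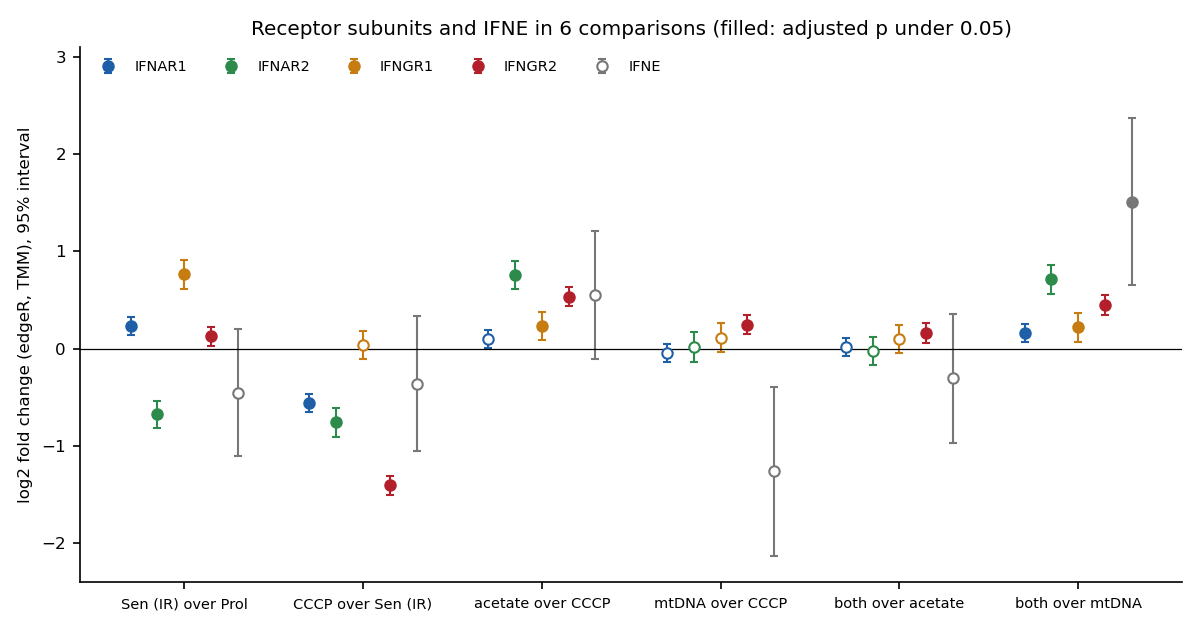
Fitted log2 fold change (edgeR, TMM) on the y axis, with its 95% interval, for 4 receptor subunits and IFNE in 6 comparisons on the x axis, where filled points passed an adjusted p of 0.05. IFNGR2 and IFNAR2 lie at -1.40 and -0.76 after CCCP and at 0.54 and 0.76 with acetate, and IFNE has the widest intervals.

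The effect of mtDNA was not shown to depend on acetate for any receptor. The interaction, which is the mtDNA effect with acetate minus that without, was called for 0 of the members, where it was called as higher for 0.0765% and as lower for 0.583% of genes tested. It was 0.06 for IFNAR1 (95% interval -0.07 to 0.19), -0.04 for IFNAR2 (-0.26 to 0.17), -0.02 for IFNGR1 (-0.22 to 0.19) and -0.09 for IFNGR2 (-0.23 to 0.06), with edgeR adjusted p from 0.698 to 0.972. At an unadjusted p of 0.05 it was also 0 of the members, and with DESeq2's Wald test 0 were called. For IFNB1 the interaction has no meaning, since both groups without mtDNA are at 0.

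Reads of neighbouring genes touch some of these values. Exons of IFNGR2 overlap those of TMEM50B on the opposite strand, and the study's methods describe strand-aware counting for stranded libraries without saying whether these libraries were stranded. TMEM50B fell by 0.28 on the log2 scale after CCCP and by 0.18 with mtDNA, and gave -0.02 with acetate, so it moved with IFNGR2 after CCCP and against it with mtDNA. Exons of IFNAR2 overlap the readthrough gene AP000295.1, which had 68 counts over 18 libraries against 8622 for IFNAR2. How reads shared by both genes were counted is not given, so these counts do not bound the reads that IFNAR2 may have lost.

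The genes whose levels over the 18 libraries most resembled each receptor were EML1 and FNDC3B for IFNAR1 (Pearson's r of log2(CPM + 1) 0.979 and 0.973) and ADD1 and SEPTIN2 for IFNAR2 (0.988 and 0.988). They were IFT74 and GNAI1 for IFNGR1 (0.982 and 0.980) and PDCD4 and TSLP for IFNGR2 (0.992 and 0.987). These are descriptions over 6 groups of 3 libraries.

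Downstream of the receptors, 11 genes of receptor signalling were followed. In Sen (IR) over Prol 2 rose and 5 fell (median log2 fold change -0.15, against -0.01 over all genes tested, of which 26.7% rose and 29.9% fell), with IL10RB up by 0.48 ± 0.07 (adjusted p = 2.11e-06) and the kinase JAK1 down by 0.43 on the log2 scale (SE 0.04). After CCCP 3 rose and 6 fell (median -0.15, against 0.03 over all genes, of which 34% rose and 31.3% fell). SOCS1, an inhibitor of JAK kinases, fell by 3.98 (SE 0.37, adjusted p = 3.35e-09). It had 115, 64 and 42 counts in Sen (IR) and 6, 3 and 5 after CCCP, near the floor, so the size of its fall is uncertain. The transcription factors STAT2 and IRF9 fell by 0.82 and 1.38. IL10RB fell by 0.92 (SE 0.07). SOCS3, another inhibitor of cytokine receptor signalling, rose by 1.06 ± 0.08 (adjusted p = 9.64e-11).

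With mtDNA 5 of the 11 rose and 0 fell, both over Sen (IR) + CCCP (median 0.20, against 0.00, where 10.7% of all genes rose) and, in the combination, over acetate (median 0.15, against 0.00, where 6.57% rose). The count over acetate was 3 without acetate replicate 3 and 3 without replicate 2 of the combination. USP18, which binds IFNAR2 and dampens type I signalling, rose by 3.65 ± 0.31 and 3.05 ± 0.33 in these comparisons, STAT2 by 1.51 ± 0.16 and 0.98 ± 0.16, and IRF9 by 1.54 ± 0.18 and 1.29 ± 0.20. Without replicate 2 of the combination, USP18 rose by 2.29 ± 0.13 over acetate. JAK2 and JAK1 were the other 2 in both. With acetate over Sen (IR) + CCCP 1 rose and 2 fell (median 0.08, against 0.01, where 28.8% of all genes rose and 28.3% fell), and the largest difference was PTPN2, a phosphatase that acts on JAK kinases, which fell by 1.12 (SE 0.07, adjusted p = 6.11e-12). In the combination over mtDNA 1 rose and 4 fell (median -0.37, against -0.02, where 27.4% of all genes rose and 29.9% fell). PTPN2 fell by 0.93 and USP18 by 1.26. Without replicate 2 of the combination 2 rose and 5 fell (median -0.57), and USP18 fell by 2.02 (SE 0.11). The interaction was called by edgeR for 0 of the 11 (1 at an unadjusted p under 0.05, 0 by DESeq2, and 2 without replicate 2 of the combination).

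**Figure D4:**
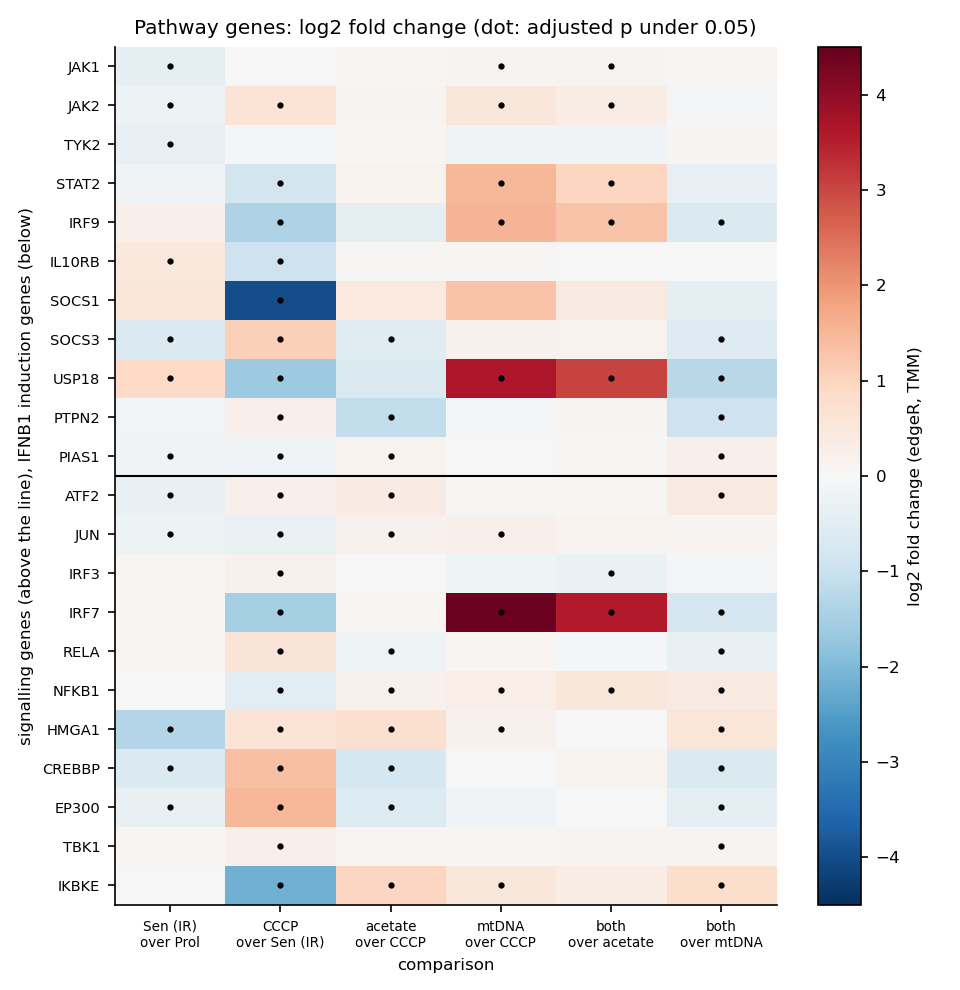
Fitted log2 fold change (edgeR, TMM, colour scale) of 11 receptor signalling genes above the line and 11 genes of IFNB1 induction below it, in rows, for 6 comparisons in columns, with a dot where the adjusted p was under 0.05. USP18 and IRF7 stand out with mtDNA, at 3.65 and 4.41, and SOCS1 after CCCP at -3.98, where it had 3 to 6 counts per library.

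Upstream of IFNB1, 11 genes that act in its induction were followed. In Sen (IR) over Prol 0 rose and 5 fell (median -0.01), where 26.7% and 29.9% of all genes did, led by HMGA1, an architectural protein of the IFNB1 enhancer, which fell by 1.31 (SE 0.06). After CCCP 7 rose and 4 fell (median 0.22, against 0.03 over all genes tested, of which 34% rose and 31.3% fell). The coactivators CREBBP and EP300 rose by 1.34 ± 0.07 and 1.48 ± 0.08, and the kinase IKBKE and the factor IRF7 fell by 2.17 and 1.49. With acetate 5 rose and 3 fell (median 0.07, against 0.01, where 28.8% and 28.3% of all genes did), with IKBKE up by 0.97 ± 0.16, HMGA1 up by 0.72 ± 0.06 and CREBBP down by 0.80 on the log2 scale. With mtDNA 5 rose and 0 fell (median 0.09, against 0.00, where 10.7% and 7.4% of all genes did). IRF7, itself an interferon-stimulated gene, rose by 4.41 ± 0.33 (adjusted p = 2.65e-09), NFKB1 by 0.30 ± 0.07 and JUN by 0.24 ± 0.06, whereas IRF3 and TBK1 gave -0.18 and 0.07 and were not called. The count with mtDNA was 3 without Sen (IR) + CCCP replicate 1 or 3. In the combination over acetate 2 rose and 1 fell (median 0.12, against 0.00, where 6.57% and 6% of all genes did), with IRF7 up by 3.57 ± 0.33, NFKB1 up by 0.51 ± 0.06 and IRF3 down by 0.30 on the log2 scale. In the combination over mtDNA 5 rose and 4 fell (median 0.12, against -0.02, where 27.4% and 29.9% of all genes did), and the interaction was called by edgeR for 0 of the 11 (3 at an unadjusted p under 0.05, 0 by DESeq2, and 1 without replicate 2 of the combination).

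Interferon-stimulated genes were followed as well, and whether their changes ran through interferon and its receptors was not tested. The list held 10 genes: ISG15, IFIT1, IFIT2, IFIT3, MX1, MX2, OAS1, OAS2, RSAD2 and IFI44L. Their mean log2(CPM + 1) was 3.55 ± 0.06 (SD, n = 3) in Prol, 4.96 ± 0.05 in Sen (IR), 1.76 ± 0.07 in Sen (IR) + CCCP, 1.66 ± 0.04 with acetate, 7.98 ± 0.32 with mtDNA and 6.06 ± 1.24 with both. Sen (IR) lay above Prol in every library although neither group had a count of IFNB1. Of the 10 genes, 9 rose in Sen (IR) over Prol (median log2 fold change 1.58), where 26.7% of all genes rose, and 10 fell after CCCP (median -3.82), where 31.3% of all genes fell. With acetate 0 passed in edgeR (median -0.02, against 0.01 over all genes tested), 1 had an unadjusted p under 0.05 and 1 was called by DESeq2's Wald test. With mtDNA 10 rose (median 7.56), where 10.7% of all genes rose. In the combination 10 rose over acetate (median 6.48, and 5.38 without replicate 2 of the combination), where 6.57% of all genes rose. In the combination 10 fell compared with mtDNA alone, where 29.9% of all genes fell, with a median of -1.65, and 10 fell without replicate 2, with a median of -3.03. The interaction was called by edgeR for 0 of the 10 (3 at an unadjusted p under 0.05, 0 by DESeq2, and 6 without replicate 2 of the combination).

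The order of libraries by these genes followed the IFNB1 counts only in part. Within the combination, replicate 2 had 7.49 and replicates 1 and 3 had 5.33 and 5.37, in the order of their 30, 4 and 6 counts of IFNB1 except that the last 2 lay close together. Among the mtDNA libraries, replicate 2 had the most IFNB1, at 1.15 CPM, and the lowest mean of the 10 genes, at 7.62 against 8.25 and 8.08. No correlation is given, since the libraries fall into separate clusters.

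**Figure D5:**
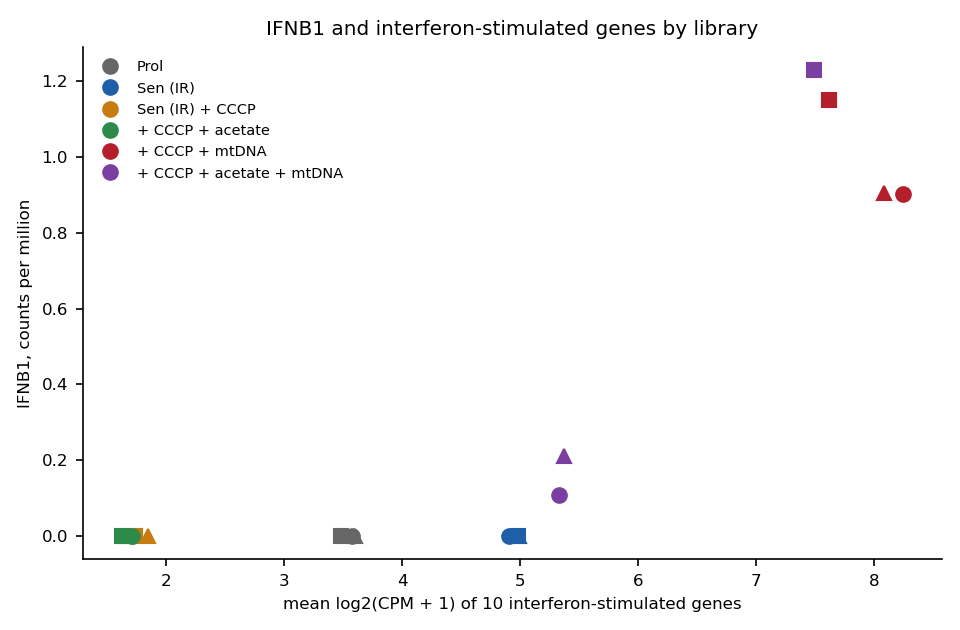
IFNB1 in CPM on the y axis against the mean log2(CPM + 1) of 10 interferon-stimulated genes on the x axis for the 18 libraries, coloured by group, with circles, squares and triangles for replicates 1, 2 and 3. The 3 libraries of Sen (IR) lie at 4.90 to 4.99 with 0 CPM of IFNB1, close to replicates 1 and 3 of the combination at 5.33 and 5.37.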

How the data were processed

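Libraries were grouped by their titles. The submitters' processing notes name Trimmomatic 0.36, STAR 2.5.2b, featureCounts, Subread 1.5.2 and the build GRCh38. The authors deposited raw counts of uniquely mapped reads per gene, without normalization, and TPM for the same genes, which scale counts by gene length and library total. Whether these libraries were stranded is not given in the sources used here.

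edgeR 4.0.16 (R 4.3.3) fitted 1 quasi-likelihood model of 6 group means to the counts of all 18 libraries, with TMM factors (0.874 to 1.13) and filterByExpr, which left 16994 genes. Tests were two-sided, with Benjamini-Hochberg adjustment over all of them and a threshold of 0.05. Of the 10 members 6 passed the filter, IFNB1 only through the groups with mtDNA, where it had to differ. It counts among the members tested although 3 comparisons set 0 counts against 0. Intervals are 95%, and the floor of 3 counts and counting intervals cover counting error only. Total counts per library had a median of 29620505.5, and 0 columns lacked a sample. Replicate libraries of a group differed by more than sampling noise, most in pairs with Sen (IR) replicate 3 or with replicate 2 of the combination. Alternatives used DESeq2 1.42.0 and limma 3.58.1. The procedure was tested on simulated counts.

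All 10 members were named, with the other interferon genes, lists of signalling, induction and stimulated genes, 5 genes most like IFNB1 and 2 most like each receptor by Pearson's r. Members and lists were chosen with earlier results of these data known. From the signalling list 1 gene, and from the leukocyte markers 1 gene, are not reported here.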

Additional observations from a re-analysis of the deposited data

How the results depend on the processing

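Under every alternative run, IFNAR2 and IFNGR2 after CCCP and with acetate over Sen (IR) + CCCP kept their direction and call. IFNB1 in the combination over acetate and IFNE with mtDNA had no value with only the groups compared, since the filter dropped them. No fold change of IFNB1 is reported where both groups had 0 counts, or for its interaction, and its calls over groups at 0 are no sign of stability. Depth limits the type III ligands and IFNLR1, which were at or near the floor.

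The number of members called in the combination over acetate was 2, with IFNB1 counted, and it was 1 with the paper's rule, 1 with no filter on low counts, 0 with only the groups compared, 1 on total counts alone, 1 on log2(TPM + 0.1) and 1 to 2 with a library left out. In the combination over mtDNA it was 5, and 2 with the paper's rule and 3 on total counts. In Sen (IR) over Prol it was 4, and 2 with the paper's rule. Total counts alone and log2(TPM + 0.1) were chosen after seeing the data. The paper's rule, a DESeq2 nominal p under 0.05 with an absolute log2 fold change over 0.5, drops small changes by construction, and the cause of the other differences was not tested.

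Differences of receptors near 0 changed sign. IFNAR1 with acetate was -0.0252 on total counts and -0.00132 on TPM, and in the combination over acetate -0.0352 and -0.0164 (-0.0113 to 0.0687 with a library left out). IFNAR2 in the combination over acetate was 0.0057 with DESeq2's size factors and 0.00935 with DESeq2 under either rule (-0.0433 to 0.0129 with a library left out). IFNAR2 with mtDNA was -0.0485 on total counts and -0.0483 on TPM (-0.0478 to 0.103 with a library left out), and its interaction ran from -0.12 to 0.0263. The IFNGR1 interaction was 0.00977 with DESeq2's size factors, 0.0112 with DESeq2 under either rule and 0.0204 on TPM (-0.054 to 0.0186 with a library left out), and IFNGR1 after CCCP ran from -0.0711 to 0.125 with a library left out, and was 0.304 on total counts and 0.478 on TPM, both called.

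Over all genes, the paper's rule called 5709 in place of 9628 (Sen (IR) over Prol), 7380 in place of 11088 (after CCCP), 5522 in place of 9709 (acetate), 1758 in place of 3071 (mtDNA), 1290 in place of 2136 (combination over acetate), 5760 in place of 9748 (combination over mtDNA) and 622 in place of 112 (interaction). The interaction count was 258 with DESeq2, 413 with no filter and 55 to 403 with a library left out, the 403 without replicate 2 of the combination. The combination over acetate gave 1241 and 1296 without acetate replicate 2 and 3. Of the induction list, the paper's rule called 2 in place of 5, 7 in place of 11, 4 in place of 8, 2 in place of 5 and 4 in place of 9 (senescence, CCCP, acetate, mtDNA, combination over mtDNA), DESeq2 6 in place of 3 (combination over acetate) and log2(TPM + 0.1) 3 in place of 5 (mtDNA). Of the signalling list, 5 in place of 3 were called with acetate with only the groups compared, 2 in place of 7 in Sen (IR) over Prol with the paper's rule, 3 in place of 5 in the combination over acetate with the paper's rule and on log2(TPM + 0.1), and 2 in place of 0 for the interaction with no filter. Of the 10 stimulated genes, 1 to 3 in place of 0 were called with acetate, 6 in place of 10 in the combination over mtDNA with only the groups compared, and for the interaction 6 with the paper's rule, 7 with no filter and 1 on log2(TPM + 0.1) in place of 0.

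Replicate numbers did not pair the samples: same-numbered libraries had correlations of deviations from -0.0821 to 0.0917 over 45 pairs. With the replicate block 5 members were called in the combination over mtDNA, and all 73 values kept their direction and call, or stayed within 1.5 times for counts.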
